A study of Mus musculus with 15 samples.

Results

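The genes described here encode the proteins of the mitochondrial ribosome. They were chosen by name and level: every gene whose symbol starts with Mrpl or Mrps followed by a digit, without the ending -ps, and whose mean over the 15 libraries was at least 1 CPM (the gene's count scaled to a common library total). This gave 78 genes of the 22798 in the deposited count table, 49 with Mrpl symbols and 29 with Mrps symbols. A further 4 symbols carried the ending -ps and were set aside, with mean levels of 0.313 CPM for Mrps36-ps1, 0.341 CPM for Mrps36-ps2, 1.699 CPM for Mrpl23-ps1 and 1.75 CPM for Mrpl48-ps, so that reads of Mrps36, Mrpl23 and Mrpl48 may have been shared with near copies. Of the Mrpl and Mrps symbols without the ending -ps, none fell under the threshold. The lowest members were Mrpl53 at 6.74 CPM and Mrps6 at 10.8 CPM, and all 78 passed the filter on low counts.

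The libraries came from skeletal muscle of C57BL/6 mice aged 12 months that were kept on a normal diet and starved overnight, conditions that all groups shared. The 3 groups were CD47-KO (CD47-/- mice, 3 libraries), exercise (6 libraries) and sedentary (wild type, 6 libraries). CD47 is a cell surface receptor of thrombospondin-1 and a ligand of SIRP alpha. The mode and length of exercise, the muscle sampled, the sex of the mice and the design of the knockout allele are not given in the sources used here, and no label says that each library was a separate animal, so a p-value here speaks only of the spread among these libraries.

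The mitochondrial ribosome translates the few messenger RNAs of the mitochondrial genome, which encode membrane subunits of the respiratory chain and of ATP synthase. Its ribosomal RNAs are copied from mitochondrial DNA, whereas its proteins are encoded in the nucleus, made in the cytosol and imported. Some of these proteins descend from those of the bacterial ribosome and others exist only in mitochondria. In muscle, which depends on oxidative phosphorylation during sustained work, the supply of this ribosome belongs to the machinery of mitochondrial biogenesis.

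By the roles assigned here, 30 members were large subunit proteins with a bacterial counterpart, 21 were large subunit proteins specific to mitochondria, 16 were small subunit proteins with a bacterial counterpart and 10 were small subunit proteins specific to mitochondria. Mrps30 and Mrps18a were counted with the large subunit, where structures place their proteins. Mrps36 stood alone, since its protein is now placed in the 2-oxoglutarate dehydrogenase complex. The genes lay on 17 chromosomes, 11 of them on chromosome 11 and 8 on chromosome 17. Their transcripts were short, with a median of 1302 bases against 2613 bases over all genes matched to the annotation, and had a median GC content of 50.4% against 50.2%. GC content ran from 39.6% in Mrps14, 41.6% in Mrpl1 and 42.2% in Mrpl32 to 60.1% in Mrpl4, 60.4% in Mrpl54 and 60.6% in Mrps34.

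Levels are given below as scaled CPM, CPM of a library total that was first multiplied by its TMM factor. Divided by transcript length, the mean levels of the members spanned 2.61 to 180 scaled CPM per kilobase with a median of 19.6. Mrpl42, Mrps21 and Mrpl30 were highest at 180, 147 and 74.9 scaled CPM per kilobase, and Mrpl19, Mrpl47 and Mrps17 were lowest at 2.61, 3.71 and 3.82. The median was 25.9 scaled CPM per kilobase for large subunit proteins with a bacterial counterpart and 18.0 for those specific to mitochondria. It was 18.4 for small subunit proteins with a bacterial counterpart and 13.4 for those specific to mitochondria. These values describe messenger RNA per length of 1 transcript per gene, not the amount of protein.

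Some sequence motifs, which the choice by name did not use, were more frequent in the promoters of the members than in all promoters compared. NRF1, ETS factors such as GABP, and YY1 are known regulators of nuclear genes for mitochondria. In the window from 250 bases before to 50 bases after the RefSeq transcription start, 69 of the 78 members had a sequence. The NRF1 motif, GCGC followed by any base and TGCGC, was present on either strand in 13 of them (18.8%), against 8.58% of all 13379 promoters. All promoters here are those of genes of the count table at any level, while the members were chosen at 1 CPM or more. The ETS motif CCGGAAG was present in 25 (36.2%), against 15.2% of all promoters, and the YY1 motif AAGATGGC in 12 (17.4%), against 4.02%. The ETS motif ends in letters with which the YY1 motif begins, so matches of these can overlap. At least 1 of the 3 motifs was found in 42 members (60.9%) and in 24.8% of all promoters, while the median GC content of the windows was 58.3% in members and 59.7% overall. The 250 bases before the start of Mrps21 (GRCm38.p6, chr3:95871515-95871764, minus strand) and of Mrpl52 (chr14:54426659-54426908, plus strand) are shown because these short genes had some of the largest differences between library sets described below. Capitals mark the NRF1 motif in Mrps21 and the reverse complement of the ETS motif in Mrpl52.
Mrps21: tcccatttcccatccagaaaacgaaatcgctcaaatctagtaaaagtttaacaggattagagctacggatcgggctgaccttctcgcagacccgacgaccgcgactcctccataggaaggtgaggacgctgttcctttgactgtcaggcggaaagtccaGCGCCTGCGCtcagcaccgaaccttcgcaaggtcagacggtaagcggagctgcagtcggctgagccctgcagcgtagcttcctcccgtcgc
Mrpl52: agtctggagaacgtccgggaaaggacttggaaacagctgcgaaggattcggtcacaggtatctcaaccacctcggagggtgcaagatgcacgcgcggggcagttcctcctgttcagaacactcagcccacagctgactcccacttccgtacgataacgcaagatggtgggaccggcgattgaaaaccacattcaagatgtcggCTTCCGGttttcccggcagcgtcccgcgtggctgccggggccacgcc
The rest of each stretch held no further copy of these 3 motifs. A match describes letters only and does not show that a factor binds there. Many members also sat head to head with another gene: 18 of 78 (23.1%) had a protein-coding start within 1000 bases on the opposite strand, against 8.85% of 15553 protein-coding genes. Such partners included Psma2 beside Mrpl32, Zfp189 beside Mrpl50, Eme2 beside Mrps34, Sars2 beside Mrps12 and Pnpla7 beside Mrpl41.

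Library totals were 50928458 to 84364189 counts, and a member had 108 to 13116 counts in a library. All 11 skeletal muscle fibre markers were present, with a summed level of 107524 to 152694 scaled CPM in CD47-KO libraries, 163594 to 268065 in exercise libraries and 133280 to 235262 in sedentary libraries. Satellite cell markers summed to 17.8 to 19.5 scaled CPM in CD47-KO, 21.9 to 30.4 in exercise and 24.2 to 32.45 in sedentary libraries. For fibroblast markers these ranges were 273 to 322, 119 to 256 and 100.4 to 603. The other marker lists overlapped between CD47-KO and each of the other groups. The part of these markers in the members' differences was not tested. Cd47 itself averaged 11.9 ± 0.356 scaled CPM in the libraries labelled CD47-KO (SD, n = 3) and 14.3 ± 1.77 in sedentary libraries (SD, n = 6), a log2 fold change of -0.26 (exact two-sided permutation p = 0.0833, smallest possible 0.0119), so its level does not check that label. In a principal component analysis of genes tested with a mean of at least 1 on the log2 CPM scale, the first component (35.4% of variance) set the CD47-KO libraries apart and the second (25.8%) set the exercise and sedentary libraries numbered 4 to 6 apart from those numbered 1 to 3. No label names these sets, but the sample descriptions of the exercise group run from EX_1 to EX_3 and then from EX_6 to EX_8. Because the CD47-KO libraries joined neither set, a set of their own and the genotype label cannot be told apart. Sedentary library 6 stood farthest out on the second component. The libraries differed in other ways too: mitochondrially encoded messenger RNAs took 17.3 to 18.4% of counts in CD47-KO libraries, 3.63 to 11.8% in exercise libraries and 4.15 to 16.3% in sedentary libraries. The symbols AY036118 and CT010467 together took 0.0327 to 0.0596% of counts in CD47-KO libraries. Their share was 0.881 to 12.25% in exercise libraries and 2.83 to 10.08% in sedentary libraries, so CD47-KO did not overlap either group.

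As a whole, the members stood low in the CD47-KO libraries and followed the library numbers in the other groups. Their summed level was 2022, 2028 and 1894 scaled CPM in the CD47-KO libraries. It was 3139.5, 3208 and 3123 in exercise libraries 4 to 6 and 2401, 2155 and 2082 in exercise libraries 1 to 3. In sedentary libraries 4 to 6 it was 2902, 2653 and 4172, and in sedentary libraries 1 to 3 it was 2084, 2103 and 2103. Every exercise and sedentary library with a number of 4 to 6 was thus above every one with a number of 1 to 3. In scaled CPM the CD47-KO libraries were below all others. As a share of raw counts they were not, at 0.193 to 0.233% in CD47-KO libraries. That share was 0.195 to 0.248% in exercise libraries 1 to 3 and 0.198 to 0.257% in sedentary libraries 1 to 3. In bulk tissue, fewer cells of a type and less RNA per cell cannot be told apart. The median member followed the same order in scaled CPM. Relative to each gene's mean over the 15 libraries, it stood at -0.28, -0.30 and -0.38 on the log2 scale in the CD47-KO libraries. It stood at 0.36 to 0.40 in exercise libraries 4 to 6 and at -0.25 to -0.06 in exercise libraries 1 to 3. In sedentary libraries it stood at 0.12 to 0.68 in numbers 4 to 6 and at -0.26 to -0.25 in numbers 1 to 3.

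**Figure D1:**
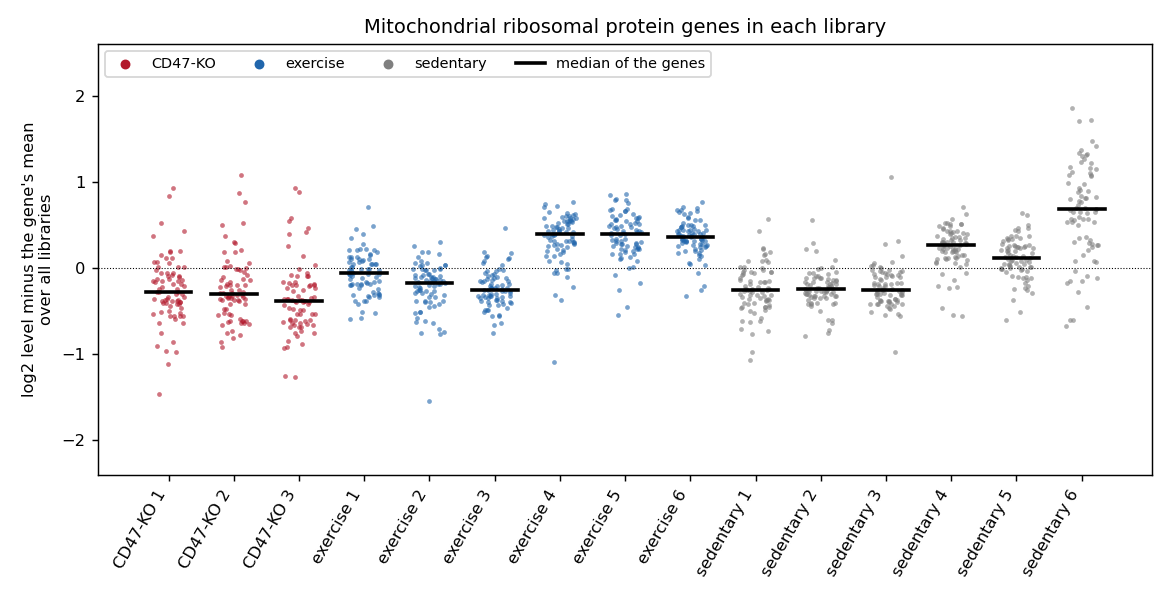
Log2 level of each of the 78 genes minus its mean over the 15 libraries (vertical axis), by library (horizontal axis, CD47-KO, then exercise, then sedentary); each point is a gene and each line the library's median. The medians lie at -0.38 to -0.28 in CD47-KO libraries, and in the other groups numbers 4 to 6 lie above numbers 1 to 3, with sedentary library 6 highest at 0.68.

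The comparison of CD47-KO with sedentary muscle asks which genes differ when the receptor is labelled as absent. Of the 78 members, 14 were lower and 3 were higher in CD47-KO libraries by edgeR's quasi-likelihood test at a Benjamini-Hochberg adjusted p under 0.05, taken over all 17975 genes tested. Over all genes, 8.75% were lower and 11.9% were higher. The median log2 fold change of the members was -0.42, against -0.11 over all genes, with 65 members below 0 and 13 above. Length moved with this contrast. For transcripts under 1000 bases the medians were -0.67 in members and -0.62 over all genes of that length. They were -0.34 and -0.27 at 1000 to 2000 bases, and -0.18 and 0.04 for longer transcripts. Without sedentary library 6 the members' median was -0.20, with 55 below 0, and with 1 of the other CD47-KO or sedentary libraries left out it ran from -0.51 to -0.34. The members that fell came from both subunits. They were 3 of the 30 large subunit proteins with a bacterial counterpart (Mrpl28, Mrpl2 and Mrpl10), 4 of the 21 large subunit proteins specific to mitochondria (Mrps18a, Mrpl37, Mrpl58 and Mrpl38), 4 of the 16 small subunit proteins with a bacterial counterpart (Mrps16, Mrps24, Mrps11 and Mrps7), 2 of the 10 small subunit proteins specific to mitochondria (Mrps34 and Mrps23), and Mrps36. The 3 that rose, Mrpl50, Mrpl32 and Mrpl1, all encode large subunit proteins.

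Mrpl28 (chr17:26123500-26126613, plus strand), a large subunit protein with a bacterial counterpart, had 12.0, 18.3 and 13.7 scaled CPM in CD47-KO libraries, against 28.6, 35.6 and 69.5 (lowest, median and highest) in sedentary libraries. Its log2 fold change was -1.47 (SE 0.32, edgeR adjusted p = 0.00394), the largest fall among the members. The groups did not overlap, and CD47-KO was also below every exercise library, where levels were 28.2, 44.5 and 59.7 (lowest, median and highest). Mrps34 (chr17:24895116-24897502, plus strand), a small subunit protein specific to mitochondria, had 10.6, 12.2 and 12.2 scaled CPM in CD47-KO libraries, against 21.1, 24.6 and 57.0 in sedentary libraries, a log2 fold change of -1.40 (SE 0.33, edgeR adjusted p = 0.00646). All 3 CD47-KO libraries were again below all of the others, although exons of Mrps34 overlap those of Nme3 on the same strand and of Mapk8ip3 on the other. Mrps16 (chr14:20389304-20393634, minus strand), whose protein sits in the small subunit body, had 14.9, 14.8 and 9.71 scaled CPM in CD47-KO libraries and 17.8, 23.9 and 57.6 in sedentary libraries (log2 fold change -1.13, SE 0.33, edgeR adjusted p = 0.0242). Here the highest CD47-KO library was close to the lowest sedentary library, and the call was lost when any of the 3 CD47-KO libraries was left out (adjusted p between 0.0518 and 0.148).

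Mrps24 (chr11:5703983-5715680, minus strand) shares exons with Urgcp on its strand. It had 11.6, 13.0 and 14.1 scaled CPM in CD47-KO libraries and 20.2, 23.0 and 53.1 in sedentary libraries, with a log2 fold change of -1.13 (SE 0.27, edgeR adjusted p = 0.0084). Without CD47-KO library 1 its adjusted p was 0.0606. Mrps18a belongs to a trio of related genes whose proteins went to different places in the ribosome. It had 35.9, 33.6 and 32.99 scaled CPM in CD47-KO libraries and 46.1, 55.7 and 126 in sedentary libraries (log2 fold change -0.95, SE 0.30, edgeR adjusted p = 0.0317). The call was lost when any of the CD47-KO libraries was left out (adjusted p between 0.0873 and 0.131), and the lowest exercise library was at 35 scaled CPM, within the CD47-KO range. Its relatives Mrps18b and Mrps18c, with log2 fold changes of -0.67 each (SE 0.34 and 0.28), did not pass the test (edgeR adjusted p = 0.18 and 0.105). Mrps23, a small subunit protein specific to mitochondria, had 23.7, 35.1 and 28.1 scaled CPM in CD47-KO libraries and 32.3, 55.2 and 79.6 in sedentary libraries, where the groups overlapped (log2 fold change -0.94, SE 0.27, edgeR adjusted p = 0.0215). Leaving out CD47-KO library 1 or 3 ended that call, at adjusted p = 0.134 and 0.0998.

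Members with smaller differences were more even within groups. Mrpl37, a large subunit protein specific to mitochondria, had 48.3, 45.6 and 46.9 scaled CPM in CD47-KO libraries and 66.0, 74.2 and 78.8 in sedentary libraries, a log2 fold change of -0.65 (SE 0.14, edgeR adjusted p = 0.00361). Mrps11, a small subunit protein whose exons overlap those of Mrpl46 on the other strand, had 8.67, 7.71 and 7.06 scaled CPM in CD47-KO libraries and 12.5, 14.6 and 16.5 in sedentary libraries (log2 fold change -0.89, SE 0.19, edgeR adjusted p = 0.003). Neither gene overlapped between the groups. Mrps7, Mrpl2, Mrpl58, Mrpl38 and Mrpl10 fell by 0.86, 0.73, 0.64, 0.58 and 0.52 on the log2 scale. None of these 5 was called without CD47-KO library 1 or 3, and without CD47-KO library 2 Mrpl38 was. Mrps7 and Mrpl58 also lost their calls without sedentary library 4, 5 or 6, and Mrpl10 without sedentary library 2, 4 or 5. Mrpl58 encodes a peptidyl-tRNA hydrolase that is built into the large subunit and rescues stalled ribosomes. It had 9.34, 7.97 and 9.47 scaled CPM in CD47-KO libraries and 9.95, 14.2 and 17.7 in sedentary libraries, with the smallest margin of the calls (edgeR adjusted p = 0.049).

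Mrps36, whose product holds components of the 2-oxoglutarate dehydrogenase complex together, had 14.8, 19.8 and 16.0 scaled CPM in CD47-KO libraries and 22.8, 28.4 and 54.0 in sedentary libraries (log2 fold change -0.93, SE 0.31, edgeR adjusted p = 0.0431). The groups did not overlap, but the call was lost when any 1 of the 3 CD47-KO libraries or of sedentary libraries 4 to 6 was left out. Several members chosen for their roles did not pass the test. Mrpl12, the stalk protein that recruits translation factors, had 51.1, 57.0 and 52.1 scaled CPM in CD47-KO libraries and 63.5, 82.0 and 178 in sedentary libraries (log2 fold change -0.81, SE 0.32, edgeR adjusted p = 0.0847). Its CD47-KO values lay under all of the other libraries. Mrpl44, with a ribonuclease III fold, had a log2 fold change of -0.14 (SE 0.30), Mrpl45, which holds the ribosome at the inner membrane, -0.30, and Mrps30 -0.18 (edgeR adjusted p = 0.788, 0.283 and 0.733).

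For the 3 members that rose, no CD47-KO library overlapped a sedentary or an exercise library. Mrpl50 (chr4:49512596-49521093, minus strand), a large subunit protein specific to mitochondria, had 50.3, 48.4 and 50.3 scaled CPM in CD47-KO libraries, against 17.4, 22.2 and 25.3 in sedentary libraries. Its log2 fold change of 1.19 (SE 0.16, edgeR adjusted p = 0.000115) had the smallest adjusted p of the members, and every CD47-KO library was above every exercise library too, where the highest value was 29.1. Mrpl32 (chr13:14608184-14613165, minus strand) encodes a large subunit protein that must be cut by the m-AAA protease before the ribosome can be assembled. It had 21.1, 31.0 and 27.2 scaled CPM in CD47-KO libraries and 7.46, 14.4 and 19.1 in sedentary libraries (log2 fold change 0.94, SE 0.26, edgeR adjusted p = 0.0171), and its adjusted p was 0.116 without CD47-KO library 2 and 0.0526 without CD47-KO library 3. Mrpl1 (chr5:96209493-96266727, plus strand), the protein of the stalk beside the tRNA exit site, had 29.0, 27.6 and 23.7 scaled CPM in CD47-KO libraries and 7.72, 14.95 and 18.6 in sedentary libraries (log2 fold change 0.88, SE 0.24, edgeR adjusted p = 0.0166). That call was lost without CD47-KO library 1 (adjusted p = 0.0551) or 2 (0.0766).

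Counting libraries rather than fitting a model, 20 members were lower in every CD47-KO library than in every sedentary library and 4 were higher (Mrpl50, Mrpl32, Mrpl1 and Mrps22). Over all genes, 10.3% were lower and 15.7% were higher in this way. Mrps22, a small subunit protein specific to mitochondria, had 13.7, 13.1 and 13.95 scaled CPM in CD47-KO libraries and 7.85, 9.69 and 11.1 in sedentary libraries, but did not pass the test (log2 fold change 0.52, SE 0.20, edgeR adjusted p = 0.0759). The number of members called lower was 4, 7 and 5 without CD47-KO library 1, 2 and 3, with 3.47%, 4.30% and 3.23% of all genes lower in those fits. The number called higher was 1 without CD47-KO library 2, with 7.87% of all genes higher, and 5 without sedentary library 6, with 14.1%.

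Set against exercise muscle, the CD47-KO libraries again had 14 members lower and 3 higher, with 8.34% of all genes lower and 12.2% higher. The median log2 fold change was -0.42, against -0.08 over all genes, with 70 members below 0. For transcripts under 1000 bases the medians were -0.58 in members and -0.46 over all genes of that length. They were -0.40 and -0.24 at 1000 to 2000 bases, and -0.27 and 0.05 for longer transcripts. Both comparisons use the same 3 CD47-KO libraries, so they are not independent, and 11 of the lower and all 3 of the higher members were called in both. Mrpl58, Mrps18a and Mrps23 were lower only in the test against sedentary and Mrpl16, Mrpl45 and Mrps27 only in that against exercise; whether those contrasts differ is the exercise against sedentary test, in which none of the 6 passed. Mrpl28 fell by 1.60 (SE 0.32, edgeR adjusted p = 0.0022), Mrps34 by 1.18, Mrps36 by 1.14, Mrps16 by 1.07, Mrps24 by 1.01 and Mrps11 by 0.98 on the log2 scale. Mrpl37 fell by 0.86 (SE 0.14, edgeR adjusted p = 0.000432), with 48.3, 45.6 and 46.9 scaled CPM in CD47-KO libraries and 79.5, 84.2 and 93.6 in exercise libraries.

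Mrpl10, the large subunit protein that anchors the stalk, had 19.1, 18.4 and 21.3 scaled CPM in CD47-KO libraries and 27.9, 34.6 and 41.0 in exercise libraries (log2 fold change -0.80, SE 0.17, edgeR adjusted p = 0.00298). Of those called only against exercise, Mrpl45 had 38.1, 37.8 and 35.8 scaled CPM in CD47-KO libraries and 39.9, 58.0 and 66.8 in exercise libraries (log2 fold change -0.57, SE 0.19, edgeR adjusted p = 0.041). Mrpl16 fell by 0.61 and Mrps27 by 0.57 on the log2 scale. Mrpl32 rose by 1.08 (SE 0.26), Mrpl50 by 1.05 (SE 0.16) and Mrpl1 by 0.83 (SE 0.24), with edgeR adjusted p of 0.00684, 0.000235 and 0.0222. In 26 members every CD47-KO library was below every exercise library and in 3 it was above, against 14.1% and 17.5% of all genes. The count of lower members was 5, 9 and 5 without CD47-KO library 1, 2 and 3, and 9, 9 and 8 without exercise library 4, 5 and 6. Over all genes 3.56%, 4.0% and 3.39% were lower in the first 3 of these fits and 5.56%, 6.18% and 5.66% in the others. The count of higher members was 1 without CD47-KO library 2, with 8.43% of all genes higher. Mrps16, Mrpl45, Mrps27 and Mrps7 lost their calls without any 1 of these 6 libraries, and Mrpl2 without any but exercise library 5. Mrpl16 lost its call without CD47-KO library 1 or 3 or exercise library 5 or 6, Mrps34, Mrps36 and Mrps24 without CD47-KO library 1 or 3, Mrpl1 without CD47-KO library 1 or 2, and Mrpl32 without CD47-KO library 2.

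**Figure D2:**
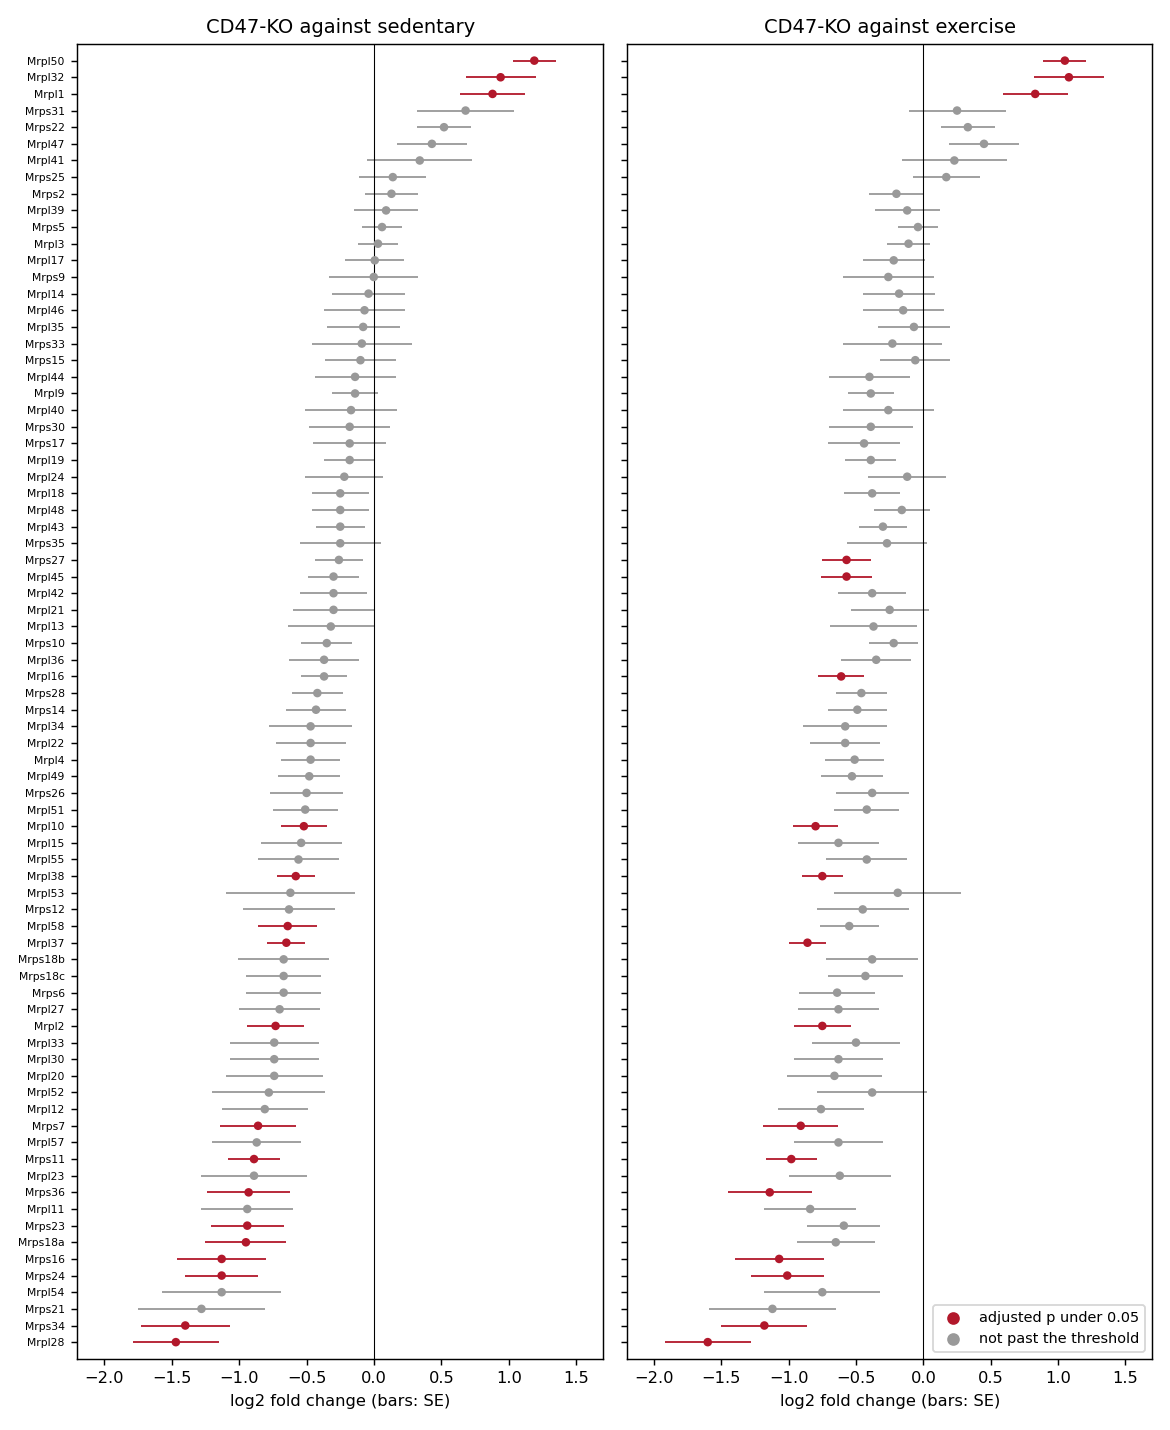
Log2 fold change of each of the 78 genes in CD47-KO over sedentary libraries (left) and CD47-KO over exercise libraries (right), with bars of 1 SE; red marks an edgeR adjusted p under 0.05. In each panel 14 genes are red below 0 and 3 (Mrpl50, Mrpl32 and Mrpl1) are red above 0, and the CD47-KO libraries are shared by both panels.

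**Figure D3:**
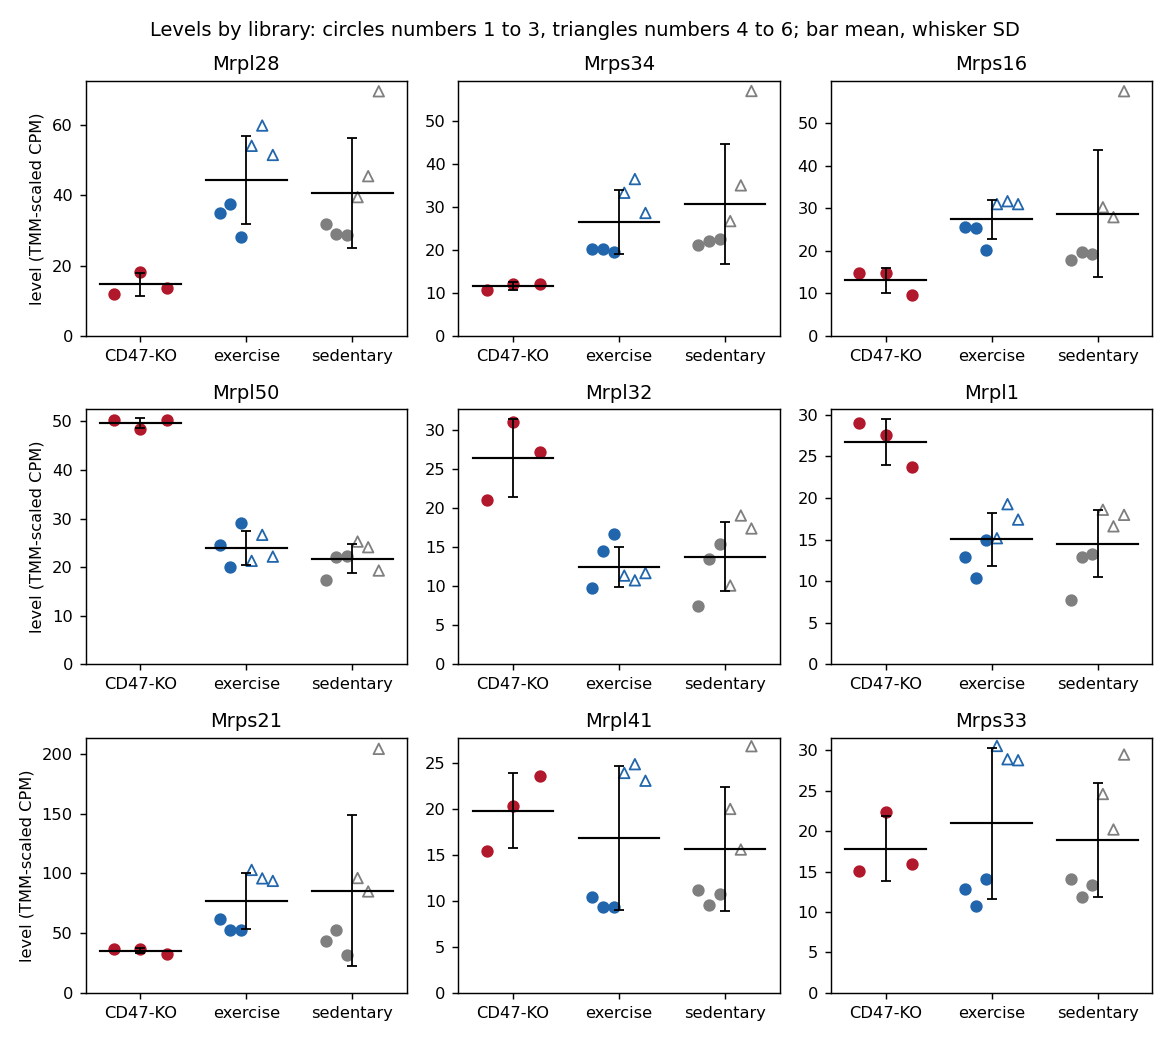
Scaled CPM (vertical axes) of 9 named genes in CD47-KO (red), exercise (blue) and sedentary (grey) libraries; circles are numbers 1 to 3, triangles numbers 4 to 6, bars the group mean and whiskers 1 SD. Mrpl28, Mrps34 and Mrps16 are lowest in CD47-KO, Mrpl50, Mrpl32 and Mrpl1 are highest there, and for Mrps21, Mrpl41 and Mrps33 the triangles lie above the circles.

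The differences between CD47-KO and the other groups followed the base composition of the transcripts. The members that rose were among the poorest in GC (Mrpl1 41.6%, Mrpl32 42.2% and Mrpl50 42.3%). Mrpl28 (58.2%) and Mrps34 (60.6%), which fell most, were rich. In CD47-KO against sedentary libraries, 3 of the 12 members under 45% GC were higher and none lower. Among members of 45 to 50% 3 were lower, among those of 50 to 55% 2 were, and none was higher. Of the 17 members of 55% or more, 9 were lower and none higher. The median log2 fold change ran from -0.08 in the first of these classes, through -0.30 in the 26 members of 45 to 50% and -0.35 in the 23 members of 50 to 55%, to -0.81 in the last. All genes tested showed the same order, with medians of 0.92, 0.12, -0.34 and -0.58. Spearman's rho between GC content and log2 fold change was -0.511 across the 78 members and -0.558 across 17914 genes. With transcript length in place of GC content, rho was 0.45 across the members and 0.277 across all of these genes. These describe genes measured in the same libraries, which are not independent replicates. The middle 120 coding bases of 2 members that rose and 1 that fell show the contrast, with G and C in capitals. They are coding bases 445 to 564 of Mrpl1 (43.3% GC), 179 to 298 of Mrpl50 (42.5% GC) and 268 to 387 of Mrps34 (63.3% GC), in the direction of the transcript, from GRCm38.
Mrpl1: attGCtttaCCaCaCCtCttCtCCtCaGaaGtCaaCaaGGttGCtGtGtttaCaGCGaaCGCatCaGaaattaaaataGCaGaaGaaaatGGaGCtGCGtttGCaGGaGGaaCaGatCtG
Mrpl50: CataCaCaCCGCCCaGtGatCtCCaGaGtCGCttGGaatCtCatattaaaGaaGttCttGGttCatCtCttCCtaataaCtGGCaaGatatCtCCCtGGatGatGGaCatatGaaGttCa
Mrps34: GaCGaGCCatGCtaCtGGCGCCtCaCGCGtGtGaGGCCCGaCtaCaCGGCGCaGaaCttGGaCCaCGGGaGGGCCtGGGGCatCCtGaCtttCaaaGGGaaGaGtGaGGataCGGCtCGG
The contrast was present within each CD47-KO library. The median of the 12 GC-poor members minus the median of the 17 GC-rich members, each relative to its mean over all libraries, was 0.48, 0.59 and 0.45 on the log2 scale in the CD47-KO libraries. It lay between -0.32 and 0.04 in exercise libraries and between -0.66 (library 6) and 0.09 in sedentary libraries.

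When each library's trend with transcript GC content was taken out by an offset, 7 members were lower and none was higher in CD47-KO against sedentary libraries, with 4.28% of all genes lower and 4.0% higher. At an unadjusted p under 0.05, 29 members passed in either direction (37.2%), as did 22.6% of all genes. Of the 14 members called lower without the offset, Mrps16 (log2 fold change -1.47, edgeR adjusted p = 0.03) and Mrps36 (-1.28, adjusted p = 0.0359) remained. Mrpl17, Mrpl35, Mrpl51, Mrpl57 and Mrps14 were called only with the offset. Mrps14, the member lowest in GC, had 21.7, 20.9 and 19.8 scaled CPM in CD47-KO libraries and 19.2, 26.1 and 39.0 in sedentary libraries. Its log2 fold change was -0.43 as measured (edgeR adjusted p = 0.192) and -1.86 with the offset (adjusted p = 4.92e-05). The higher calls were lost: Mrpl50 had a log2 fold change of 0.16, and Mrpl32 and Mrpl1 turned to -0.10 and -0.22. Mrpl28 remained lower at -0.96 without passing (adjusted p = 0.0702), and Mrps34 had -0.84 (adjusted p = 0.12). The median of the members moved little, to -0.37. An offset from the GC content of the coding sequence alone, chosen after seeing the data, gave 1 member higher and 5 lower, with 6.07% and 6.25% of all genes. Mrpl50 (0.48, adjusted p = 0.0192) kept its higher call, and Mrpl28 (-1.09, adjusted p = 0.0376) and Mrps36 (-1.21, adjusted p = 0.0267) their lower ones, while Mrpl16, Mrpl33 and Mrps18c were called lower only with that offset. Against exercise libraries 12 members were lower and none higher with the transcript offset (3.73% and 4.92% of all genes). Of the 14 called lower without it 3 were among them, Mrpl28 (-1.08, adjusted p = 0.0445), Mrpl16 (-0.63, adjusted p = 0.0465) and Mrps36 (-1.37, adjusted p = 0.0239). The 9 others, Mrpl3, Mrpl17, Mrpl19, Mrpl35, Mrpl51, Mrpl57, Mrps14, Mrps17 and Mrps30, were called only with the offset. Beyond these offsets, and those with length or a replicate block given in a later section, the part of GC content in the differences was not tested.

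**Figure D4:**
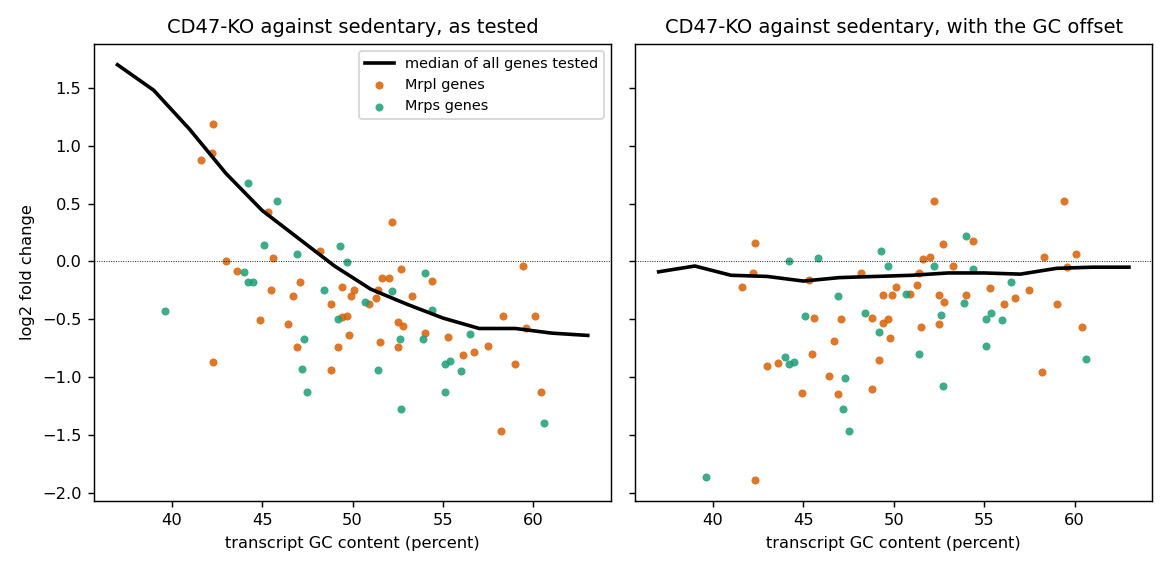
Log2 fold change of CD47-KO over sedentary libraries (vertical axis) against transcript GC content in percent (horizontal axis) for the 78 genes, as tested (left) and with a GC offset (right); Mrpl symbols are orange, Mrps symbols green, and the black line joins the medians of all genes tested by GC class. The slope of the left panel, with Spearman's rho of -0.511 for the 78 genes, is replaced on the right by a rho of 0.334.

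Another measure that moved with these results was the library number. The CD47-KO group has numbers 1 to 3 only. Against sedentary and exercise libraries of those numbers alone, 13 members were higher and 10 lower in CD47-KO than in sedentary libraries, with 19.2% and 13.8% of all genes, and the median was -0.07 against -0.06 over all genes. Of the members called against all sedentary libraries, 10 of 14 lower and 3 of 3 higher ones were called here too. Mrpl28 (-0.95, edgeR adjusted p = 0.00329), Mrps34 (-0.84, adjusted p = 0.000662) and Mrps24 (-0.79, adjusted p = 0.0094) remained lower, while Mrps16 (-0.46, adjusted p = 0.0784), Mrps23 (-0.35, adjusted p = 0.182) and Mrps36 (-0.41, adjusted p = 0.113) did not pass. The other 10 higher members were Mrpl35, Mrpl40, Mrpl41, Mrpl46, Mrpl47, Mrps15, Mrps22, Mrps25, Mrps30 and Mrps31. Mrps31, a small subunit protein specific to mitochondria, had 21.8, 23.2 and 21.6 scaled CPM in CD47-KO libraries, against 9.69, 9.55 and 12.1 in sedentary libraries 1 to 3 (log2 fold change 1.16, edgeR adjusted p = 0.000373). Sedentary libraries 4 to 6 had 22.6, 19.1 and 10.1, so that the groups overlapped over all libraries. Against sedentary libraries 4 to 6 alone, 32 members were lower and 1 (Mrpl50) was higher, with 9.27% and 11.5% of all genes and a median of -0.67 against 0.04 over all genes.

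The same was seen against exercise. With numbers 1 to 3 alone 14 members were higher and 13 lower (19.2% and 13.1% of all genes, median -0.09), and against exercise libraries 4 to 6 alone 3 were higher and 59 lower (22.1% and 18.9% of all genes, median -0.67). No member kept its call against sedentary libraries under the transcript offset, the coding sequence offset and numbers 1 to 3 alone together. Mrpl28 was lower in each of these 3 settings, with edgeR adjusted p of 0.0702, 0.0376 and 0.00329.

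No difference between exercise and sedentary muscle passed a test in these genes. Of the 78 members 0 passed in either direction by edgeR, as did 0% of all 17975 genes, and 0 members passed by DESeq2 or limma-voom. At an unadjusted p under 0.05, 1 member (1.28%) passed by edgeR, as did 3.70% of all genes. The median log2 fold change was 0.04, against -0.03 over all genes, with 43 members above 0 and 35 below, and the range was -0.43 to 0.43. Within numbers 4 to 6 the median was -0.02 and within numbers 1 to 3 it was 0.05. With sedentary library 6 left out it was 0.15, and 71 members were above 0.

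The member with the smallest p-value was Mrps27, a small subunit protein with pentatricopeptide repeats. It had 25.2, 33.2 and 40.3 scaled CPM (lowest, median and highest) in exercise libraries and 23.6, 25.7 and 32.1 in sedentary libraries, a log2 fold change of 0.32 (SE 0.14, edgeR adjusted p = 1). The groups overlapped. For Mrpl10 the log2 fold change was 0.28 (SE 0.13) and for Mrps2, a small subunit protein with a bacterial counterpart, 0.33 (SE 0.16), both with an edgeR adjusted p of 1. On the other side, Mrps23, Mrps18a and Mrpl52 had log2 fold changes of -0.35, -0.30 and -0.40 (SE 0.21, 0.23 and 0.33), and that of Mrpl52 was 0.07 without sedentary library 6. Mrpl37 was the single member whose groups did not overlap. It had 93.6, 79.5, 80.6, 88.1, 83.2 and 85.2 scaled CPM in exercise libraries 1 to 6, against 78.8, 76.0, 73.2, 71.7, 66.0 and 75.3 in sedentary libraries 1 to 6 (log2 fold change 0.21, SE 0.11, edgeR adjusted p = 1). Over all genes, 0.10% had all exercise libraries above all sedentary libraries and 0.0612% had them below.

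Related genes were not called either, by edgeR. Of 32 genes for assembly of the ribosome and for the mitochondrial RNA granule, 27 were above 0 (median log2 fold change of exercise over sedentary 0.17). So were all 14 translation factors (median 0.14) and 19 of 20 genes for mitochondrial tRNA charging (median 0.23). Cytosolic ribosomal proteins lay on the other side, with 4 of 81 above 0 and a median of -0.30. Their summed level had a median of 11643 scaled CPM in exercise libraries and 11663 in sedentary libraries, of which library 6 had 28049.

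In fits of all libraries of the groups compared, the contrast with most members called was between library numbers, not between the study's groups. It was examined after the libraries were seen to fall into these sets, with the group kept as a term in an edgeR fit of the 12 exercise and sedentary libraries. In numbers 4 to 6, 57 of the 78 members were higher than in numbers 1 to 3 and 0 were lower, with 15.7% of all 15571 genes higher and 15.8% lower. None was lower at an adjusted p under 0.05 by this edgeR fit, and 60 members (76.9%) passed in either direction at an unadjusted p under 0.05, as did 42.8% of all genes. The median log2 fold change was 0.60, against -0.02 over all genes. The classes moved alike: 23 of 30 large subunit proteins with a bacterial counterpart were higher (median 0.62), 15 of 21 specific to mitochondria (0.58), 11 of 16 small subunit proteins with a bacterial counterpart (0.58), 7 of 10 specific to mitochondria (0.61), and Mrps36 (0.76). Schwann cell markers summed to 15.5 to 30.4 scaled CPM in numbers 4 to 6 and 43.4 to 178 in numbers 1 to 3. In every other marker list the sets overlapped. Fibroblast markers summed to 100.4 to 195 scaled CPM in numbers 4 to 6 and 154 to 603 in numbers 1 to 3. Erythroid markers summed to 215 to 1235 scaled CPM in numbers 4 to 6 and 254 to 653 in numbers 1 to 3. Tendon and cartilage markers summed to 9.06 to 41.9 scaled CPM in numbers 4 to 6 and 8.96 to 433 in numbers 1 to 3, and muscle fibre markers to 163594 to 189390 and 133280 to 268065. Their part in the result was not tested.

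Mrps21 (chr3:95862634-95871519, minus strand), a short small subunit protein with a bacterial counterpart, had 103, 95.8 and 93.7 scaled CPM in exercise libraries 4 to 6 and 96.1, 84.9 and 204 in sedentary libraries 4 to 6. It had 62.0, 53.0 and 52.2 in exercise libraries 1 to 3 and 43.3, 52.4 and 31.7 in sedentary libraries 1 to 3 (log2 fold change 1.19, SE 0.24, edgeR adjusted p = 0.00268). The sets did not overlap, and the CD47-KO libraries, at 36.9, 36.3 and 32.7, were near the low end of numbers 1 to 3. Mrpl41 (chr2:24974117-24975098, minus strand), a large subunit protein specific to mitochondria, had 24.0, 24.9 and 23.1 scaled CPM in exercise libraries 4 to 6 and 20.03, 15.6 and 26.9 in sedentary libraries 4 to 6. In numbers 1 to 3 it had 10.5, 9.31 and 9.31 in exercise libraries and 11.2, 9.60 and 10.7 in sedentary libraries (log2 fold change 1.14, SE 0.14, edgeR adjusted p = 0.000133). Its CD47-KO values of 15.5, 20.4 and 23.6 overlapped those of numbers 4 to 6 and lay above all of numbers 1 to 3.

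Mrps33 (chr6:39801804-39810988, minus strand), a small subunit protein specific to mitochondria, spanned 20.2, 28.8 and 30.5 scaled CPM (lowest, median and highest) in numbers 4 to 6 and 10.7, 13.1 and 14.1 in numbers 1 to 3 (log2 fold change 1.07, SE 0.13, edgeR adjusted p = 0.000123). Mrpl52 rose by 1.01, Mrpl40 by 1.00 and Mrpl23, a protein at the exit of the peptide tunnel, by 1.00 on the log2 scale (SE 0.24, 0.11 and 0.19). For Mrpl40 the values were 17.0, 21.3 and 22.9 scaled CPM in numbers 4 to 6 and 9.06, 9.96 and 11.8 in numbers 1 to 3. The members chosen for their roles moved too: Mrps30 by 0.89 (SE 0.09, edgeR adjusted p = 5.74e-05), Mrpl44 by 0.83 (SE 0.12, adjusted p = 0.000311), Mrpl12 by 0.74 (SE 0.18, adjusted p = 0.00883) and Mrpl45 by 0.36 (adjusted p = 0.0251). Mrps18c rose by 0.60 (adjusted p = 0.0178), whereas Mrps18b had 0.31 (adjusted p = 0.424). On the low side none was called: Mrpl19 had -0.26 (SE 0.14, edgeR adjusted p = 0.186), Mrpl53 -0.46 (SE 0.39, adjusted p = 0.4) and Mrps5 -0.10 (SE 0.10, adjusted p = 0.51).

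Within the exercise group alone 42 members were higher in numbers 4 to 6 and 0 lower, with 10.3% of all genes higher and 12.0% lower, and the median was 0.49. Within the sedentary group alone 0 members passed by edgeR (0.529% of all genes were higher and 0.405% lower), 44 (56.4%) passed at an unadjusted p under 0.05, as did 24.3% of all genes, and the median was 0.69. In 46 members every library of numbers 4 to 6, in both groups, was above every library of numbers 1 to 3, and in 0 below, against 8.47% and 8.01% of all genes. The members' transcripts are short, and length moved with this contrast in all genes. Of the 25 members under 1000 bases 21 were called higher (median 0.69, against 0.49 over all genes of that length), of the 28 members of 1000 to 2000 bases 21 (0.52 against 0.20), and of the 25 longer members 15 (0.53 against -0.17). With an offset for GC content and length 33 members were higher and 2 lower, with 10.3% and 12.6% of all genes, and the median was 0.28. Mrps21 had 0.45 (adjusted p = 0.02) and Mrpl41 0.62 in that fit.

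Related genes moved with the sets to different degrees, in the fit where 15.7% of all genes were higher and 15.8% lower. Of the 5 ribosome subunits under other symbols in the table, Gadd45gip1 rose by 1.10, Chchd1 by 0.88, Aurkaip1 by 0.60 and Dap3 by 0.47 on the log2 scale, and Ptcd3 had 0.09. Cytosolic ribosomal proteins were higher in 49 of 81 cases and lower in 0 (median 0.70), and mitochondrially encoded messenger RNAs in 11 of 13 and 0 (median 1.03). Of these messenger RNAs mt-Atp6 (1.89), mt-Co3 (0.84), mt-Nd4 (0.84) and mt-Cytb (0.83) kept their higher calls with the GC offset. With it mt-Atp8 was lower (-0.58, edgeR adjusted p = 0.046) and the rest were not called. Of 32 assembly and RNA granule genes 14 were higher and 1 lower (median 0.29), and of 20 tRNA charging genes 4 and 0 (median 0.08). Translation factors had 1 of 14 higher (Guf1, 0.60) and 1 lower (Mtif2, -0.87). Across the 12 exercise and sedentary libraries the median pairwise correlation among the 78 members was 0.673, while within numbers 4 to 6 it was 0.427 and within numbers 1 to 3 it was 0.206 (6 libraries each). These correlations describe genes that share libraries and depth.

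**Figure D5:**
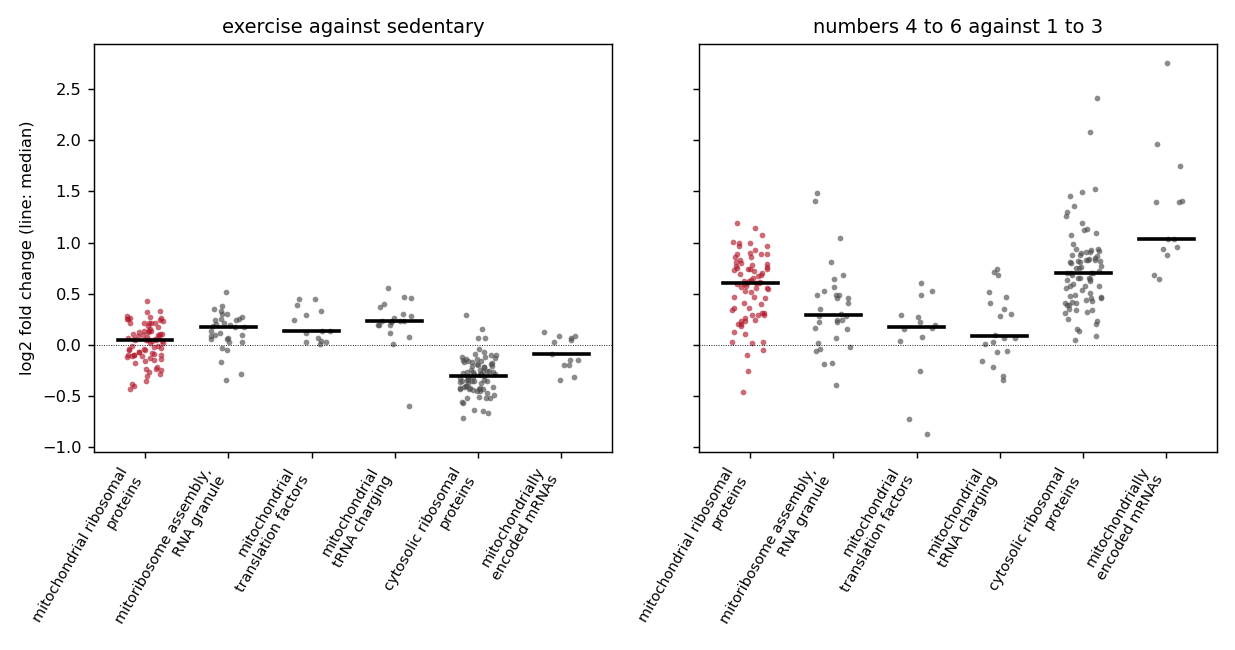
Log2 fold change of exercise over sedentary libraries (left) and of numbers 4 to 6 over numbers 1 to 3 (right) for the mitochondrial ribosomal proteins (red) and related lists (grey); each point is a gene and each line the median of its list. On the left the red median is 0.04 and no gene is called, and on the right it is 0.60 with 57 of 78 genes called higher.

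Genes that serve the same ribosome were tested between CD47-KO and sedentary libraries in the same fit, where 11.9% of all genes were higher and 8.75% lower. Translation factors were higher in 2 of 14 cases and lower in 0 (median log2 fold change 0.21): Mtrf1l, a release factor, rose by 1.16 (SE 0.26, edgeR adjusted p = 0.00438; 0.87 and adjusted p = 0.0386 with the GC offset), and Guf1, an elongation factor, rose by 1.07 (SE 0.25) but had 0.09 with the offset. Of 32 assembly and RNA granule genes 3 were higher and 4 lower (median -0.08). Gtpbp10, a GTPase of large subunit assembly, rose by 1.49, Mterf3 by 1.25 and Lrpprc, which stabilises mitochondrial messenger RNAs, by 0.75, while Mpv17l2, Rpusd3 and Mrm1 fell by 0.83, 0.79 and 0.76 on the log2 scale. None of these 6 kept its call with the GC offset, where they had log2 fold changes of 0.15, 0.29, 0.44, -0.26, -0.28 and -0.30. With it 0 genes of the list were higher and 3 lower (median 0.11). Of the subunits under other symbols Ptcd3, a small subunit protein, averaged 46.2 ± 5.38 scaled CPM in CD47-KO libraries (SD, n = 3) and 23.1 ± 7.10 in sedentary libraries (SD, n = 6), with a log2 fold change of 1.00 (SE 0.25, edgeR adjusted p = 0.0101) that was 0.11 with the GC offset. In tRNA charging Mars2 rose by 1.21 and Sars2, the divergent neighbour of Mrps12, fell by 0.62, but these had -0.39 and -0.09 with the GC offset (edgeR adjusted p = 0.399 and 0.792). Cytosolic ribosomal proteins were lower in 43 of 81 cases and higher in 0 (median -1.07), and with the GC offset in 23 and 0 (median -0.96). Mitochondrially encoded messenger RNAs were higher in 6 of 13 and lower in 0 (median 1.51). With the GC offset 1 of them was higher (mt-Nd4l, 1.19, edgeR adjusted p = 0.0165) and 1 lower (mt-Nd3, -1.88, adjusted p = 0.0156), with 9 of 13 below 0 and a median of -0.37. Their part in the members' differences was not tested.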

How the data were processed

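RNA-seq libraries of mouse skeletal muscle were deposited by the authors as 1 table of counts, raw read counts per gene with no normalization. All 15 columns were matched to samples through their titles and descriptions. Trimmomatic 0.30, HISAT2 2.0.1, HTSeq 0.6.1 and the build GRCm38 are named in the submitters' processing notes. The labels' protocols give total RNA with a RIN above 7 and the NEBNext Ultra RNA kit. The strand setting of the counting is not given in the sources used here. Exons of 31 members overlap another gene of the table, 7 on the same strand and 26 on the other, and their reads cannot be told apart where strand was not used. Between 32.1% and 50.2% of the counts from 1 to 15 in a library were multiples of 4, and the counting step behind this is not given in the sources used here. No pair of libraries agreed within sampling noise (lowest chi-square per degree of freedom 78.1).

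Counts were tested with edgeR 4.0.16 (R 4.3.3): TMM factors, filterByExpr, a robust quasi-likelihood fit of all 15 libraries with the group as the term, and Benjamini-Hochberg adjustment over 17975 genes at 0.05. A standard error is the log2 fold change divided by the square root of F. Levels are CPM of the TMM-scaled library total. GC offsets were lowess fits (span 0.3) per library on the GC content of 1 transcript per gene from the GRCm38 annotation. Gene symbols matched it once in 22716 cases, several times in 43 and not at all in 39. Promoter sequences are RefSeq's for GRCm38.p6. DESeq2 1.42.0, limma-voom 3.58.1, other factors, filters and libraries left out were alternatives, and the steps were tested on simulated data.

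The members and lists were chosen with earlier results of these data known. Named members are up to 6 with the largest change each way among those called in a comparison (where none was called, the 3 with the smallest p-value in that direction), the extremes of level per length and of GC content, those next to the level threshold, members chosen for their roles, and up to 4 genes called in each other list. Members outside this rule that are named beside counts were chosen after their values were seen. The replicate numbers of the titles were not taken as pairs in the main fit. A replicate block, with these numbers as a term, was an alternative. Between exercise and sedentary libraries, the correlations of same-numbered libraries' deviations from their group means were 0.273 to 0.539 in the 6 pairs (median 0.41). Libraries of the same set with other numbers had 0.049 to 0.492 (median 0.366), and those of the other set -0.553 to -0.114. These correlations do not tell pairs from sets. For CD47-KO against the other groups, same-numbered libraries had -0.192 to 0.309.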

Additional observations from a re-analysis of the deposited data

Results flagged for a closer look

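In groups of 6 libraries, a value was noted when the highest or lowest library's gap to the next, divided by the range of the group, was over Dixon's critical value of 0.625. Of 62 combinations of a named member and a group, 9 met this, where chance gives such a gap in about 1 of 20 groups. Sedentary library 6 was the highest for 8 members. It had 178 scaled CPM for Mrpl12 (next highest 92.9), 107 for Mrpl23 (next 55.01), 55.5 for Mrpl52 (next 21.7), 57.6 for Mrps16 (next 30.3), 126 for Mrps18a (next 60.9), 92.8 for Mrps18b (next 42.4), 204 for Mrps21 (next 96.1) and 53.1 for Mrps24 (next 27.6). The summed level of the cytosolic ribosomal proteins was also highest in that library, at 28049 scaled CPM, against 9713 to 13027 in the other sedentary libraries. Exercise library 4 was the highest for Mrps18b, with 50.01 scaled CPM (next 35.6).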

How the results depend on the processing

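The calls in CD47-KO libraries depended on offsets, library sets and single libraries, and the cause was not tested. Against sedentary libraries 3 members were higher as tested. The count was 5 with a GC and length offset, 0 with a GC offset, 1 with an offset from coding sequence GC, 9 in a fit with sedentary libraries 1 to 3 only, 1 against numbers 4 to 6, 13 with numbers 1 to 3 of all groups, and 1 to 5 with 1 library left out. The 14 lower became 8, 7, 5, 7 and 32 under the first 5 of these, 5 with only the groups compared in the fit, and 4 to 19 with 1 library left out. With GC and length, none of the 5 higher members was among the 3 called as tested. Of the 8 lower, 2 (Mrps16 and Mrps36) were among the 14. Of all genes 4.29% were lower with GC and length, 4.28% with GC, 6.25% with coding sequence GC and 4.25% with only the groups compared, against 8.75% as tested; higher were 4.47%, 4.0%, 6.07% and 11%, against 11.9%. In the fit with sedentary libraries 1 to 3 only, 18.2% of all genes were higher and 11.5% lower. Against numbers 4 to 6 these shares were 11.5% and 9.27%. The median of -0.42 became -0.10 with GC and length and -0.07 in both fits of numbers 1 to 3. Leaving out AY036118, CT010467 and the mitochondrially encoded genes gave 15 members lower and 3 higher, with a median of -0.47. Of all genes 10.3% were lower and 11.1% higher in that fit. Against exercise libraries the 3 higher became 0 with either GC offset, 11 and 14 with numbers 1 to 3 in the smaller and larger fit, and 1 to 3 with 1 library left out. The 14 lower became 9 with coding sequence GC, 59 against numbers 4 to 6, and 5 to 14 with 1 library left out, and the median of -0.42 became -0.10 and -0.09 with numbers 1 to 3 in the smaller and larger fit. Of all genes 21.2% and 19.2% were higher in those fits, and 18.9% were lower against exercise libraries 4 to 6. With coding sequence GC 5.11% were lower than in exercise libraries, against 8.34% as tested. Mrpl32 turned to -0.14 (GC and length) and -0.10 (GC) against sedentary libraries. Mrpl1 turned to -0.30 (GC and length), -0.22 (GC) and -0.42 (coding sequence GC) against sedentary, and to -0.33, -0.29 and -0.54 against exercise libraries, where the last passed as lower (edgeR adjusted p = 0.0202).

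With the replicate block, 8 members were higher and 9 lower in CD47-KO than in sedentary libraries, with a median of -0.14 and with 15% and 12% of all genes. With block and GC offset 5 were higher and 8 lower (median -0.09, with 6.61% and 6.77% of all genes). None of those 5 was called higher as tested, and 2 of those 8 (Mrps16 and Mrps36) were called lower as tested. Against exercise libraries the block gave 8 higher and a median of -0.13, and block with GC offset a median of -0.05. CD47-KO has numbers 1 to 3 only, so the block sets it mainly against libraries of those numbers. Under block and GC offset Mrpl32 and Mrpl1 had -0.19 and -0.12 against sedentary libraries, and Mrpl32, Mrpl50 and Mrpl1 had -0.08, -0.09 and -0.19 against exercise libraries. The block left 0 members called between exercise and sedentary libraries. For numbers 4 to 6 over 1 to 3, the 57 higher became 33 and the median 0.28 with GC and length, and 0 were higher in sedentary libraries alone. The 0 lower became 2 with GC and length and 1 with GC. Mrpl19 turned to 0.07 and Mrps5 to 0.18 with GC and length, and Mrps5 to 0.10 in exercise libraries alone. Mrpl52 turned to 0.01 between exercise and sedentary libraries without sedentary libraries 1 and 6 together, and ranged from -0.53 to 0.07 with 1 library left out. Coding sequence GC, the fits against 1 set and all tests of library numbers were added after seeing the data. RLE factors, DESeq2, limma-voom, no low-count filter and the filter of 1 CPM in 3 libraries kept the direction of each member named by the size of its change or its p-value in the 3 group comparisons. Member counts of 108 or more leave counting error small, and 3 CD47-KO libraries limit what can be called.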

Other observations

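Genes that control or feed mitochondrial gene expression were measured in the same libraries. Of 9 nuclear regulators, 3 were higher and 1 lower in CD47-KO than in sedentary libraries by edgeR's quasi-likelihood test. Of all genes in that fit, 11.9% were higher and 8.75% lower. With the GC offset these shares were 4.0% and 4.28%. Gabpa, the DNA-binding subunit of GABP, an ETS factor whose motif was counted in the promoters above, averaged 45.7 ± 4.49 scaled CPM in CD47-KO libraries (SD, n = 3), 9.80 ± 3.19 in exercise libraries and 8.95 ± 2.85 in sedentary libraries (SD, n = 6 each). Its log2 fold change over sedentary libraries was 2.35 (SE 0.27, edgeR adjusted p = 4.14e-05), and 1.21 with the GC offset (adjusted p = 0.000619). Ppargc1a, a coactivator of mitochondrial biogenesis, rose by 1.15 (SE 0.26) and Yy1 by 0.67 (SE 0.17), while Esrra fell by 0.55 on the log2 scale (SE 0.18). With the GC offset these had 0.0095, 0.76 and 0.03, and of the 4 Gabpa and Yy1 (adjusted p = 0.0166) kept their calls. Of 14 genes for transcription of mitochondrial DNA and for its RNA processing, 4 were higher and 0 lower: Trmt10c by 2.14 (1.18 with the GC offset, adjusted p = 0.00665), Pnpt1 by 2.02, Tfb2m by 1.18 and Tfam by 0.81. With the GC offset the last 3 had 0.82, 0.20 and 0.23 and did not pass (adjusted p = 0.0755, 0.459 and 0.604). Between exercise and sedentary libraries none of these was called by edgeR, with 7 of 9 regulators above 0 (median 0.09) and 10 of 14 genes of the second list (median 0.17).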
